A study of Mus musculus with 4 samples.

Results

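MHC class II genes and the genes that load class II molecules with peptide were followed in CD4 cells of sanroque and wild type mice. The members were 10 named genes, and every probe set annotated to 1 of them alone was taken, which gave 15 of the 22690 probe sets on the array, for 9 of the 10 genes. H2-Ob had only a probe set shared with another gene model. The tested samples, titled san/san, were CD4 cells of sanroque mice, which are homozygous for a recessive variant from a pedigree founded by C57BL/6 males treated with the mutagen ENU and which develop antinuclear autoantibodies. The samples titled +/+ were CD4 cells of wild type mice. Each genotype had 2 Affymetrix MOE430A arrays of total RNA. The labels give no age, no number of mice behind an array and no purity of the cells. The experiment information of both number 1 arrays names sorted T cells, and for wild type array 2 it holds the letters CBA, the name of another mouse strain, unexplained by the labels. Each sanroque array shared its hybridisation and scan day with the wild type array of the same number, so differences could be read within day 1 and within day 2.

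MHC class II molecules are pairs of an alpha and a beta chain that present peptides from endocytosed proteins to CD4 T cells. The chains assemble with the invariant chain Cd74, proteases such as cathepsin S (Ctss) trim it to a short fragment in the groove, and H2-DM exchanges that fragment for peptide, while H2-O restrains H2-DM. Ciita, the class II transactivator, drives these genes together with factors bound to their X and Y promoter boxes. In mice the pathway is a property of B cells, dendritic cells and macrophages, and CD4 T cells are known for reading class II molecules rather than making them. C57BL/6 mice carry a class II haplotype in which H2-Ea is not functional, and the RefSeq table based on C57BL/6J lists H2-Ea as a transcribed pseudogene, whereas CBA mice carry another haplotype with a functional H2-Ea.

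Promoter sequences are shown for genes that share the layout read by Ciita and the factors of the X and Y boxes, whose own genes are described further on. RefSeq promoters (GRCm38.p6, 250 bases before to 50 after the start) were matched for 6 of the 10 genes, with 7 promoters. The windows printed here end at the base before the start and are written 5′ to 3′ along the gene. Capitals mark GCAAC, the core of the X box recognised by the RFX complex, and GATTGG, the inverted CCAAT of the Y box bound by NF-Y, which do not overlap. The windows lie at chr17:34287824-34287973 (minus strand), chr17:34305717-34305866, chr17:34092229-34092378 and chr17:34238755-34238904 (plus strand).
H2-Aa: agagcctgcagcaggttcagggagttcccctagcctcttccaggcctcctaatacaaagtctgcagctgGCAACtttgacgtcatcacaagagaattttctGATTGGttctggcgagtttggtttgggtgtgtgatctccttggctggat
H2-Eb1: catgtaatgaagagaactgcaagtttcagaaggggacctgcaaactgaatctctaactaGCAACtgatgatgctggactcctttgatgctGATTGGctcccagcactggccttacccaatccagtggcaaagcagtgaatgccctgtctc
H2-Oa: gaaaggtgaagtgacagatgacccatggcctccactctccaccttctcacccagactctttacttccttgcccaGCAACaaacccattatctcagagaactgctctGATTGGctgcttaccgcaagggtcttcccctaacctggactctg
H2-Ob: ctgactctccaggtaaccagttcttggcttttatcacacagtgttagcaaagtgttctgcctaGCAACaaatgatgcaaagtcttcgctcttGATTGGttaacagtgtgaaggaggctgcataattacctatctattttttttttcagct
The bases between both motifs numbered 27 in H2-Aa, 26 in H2-Eb1, 27 in H2-Oa and 24 in H2-Ob. GCAAC followed by GATTGG after 20 to 30 bases, searched on both strands, occurred in these 4 of 7 member promoters and in 0.204% of 32851 promoters in the table, whereas GCAAC alone was in 35.2% and GATTGG alone in 16.1%. A match describes the letters and is not evidence of binding in these cells.

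Among the class II and loading genes, only H2-Ea, which encodes the alpha chain of I-E, passed the test, and it was lower in sanroque. Limma was fitted to log2(signal + 6) over all 13579 probe sets past a filter on mean signal (21.3), with Benjamini-Hochberg adjustment and a threshold of 0.05. Over the array 144 probe sets passed, 91 higher and 53 lower in sanroque; with each array centred on its median instead, 101 of 190 were higher. Of 13 member probe sets tested, 1 fell, 0 rose and 12 did not pass, where 0.390% of all tested probe sets were called lower, 0.670% higher and 1.06% in either direction. At an unadjusted p under 0.05 the count was also 1. The share of all tested probe sets under that level was not counted, here or for the lists that follow, so such counts stand alone. The other 2 member probe sets, 1 of H2-Ea and 1 of Ciita, lay below the filter. The genotypes did not overlap for 6 of the 13, with 2 higher and 4 lower in sanroque, against 21.0% and 17.7% of all tested probe sets. The median log2 difference was -0.078 over the tested members and 0.015 over all tested probe sets. The median SD between arrays of a genotype was 0.189 for the members and 0.208 for all tested probe sets on the log2 scale. The labels name no separate mice behind the arrays of a genotype, and the p-values rest on a spread that may be technical only.

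**Figure D1:**
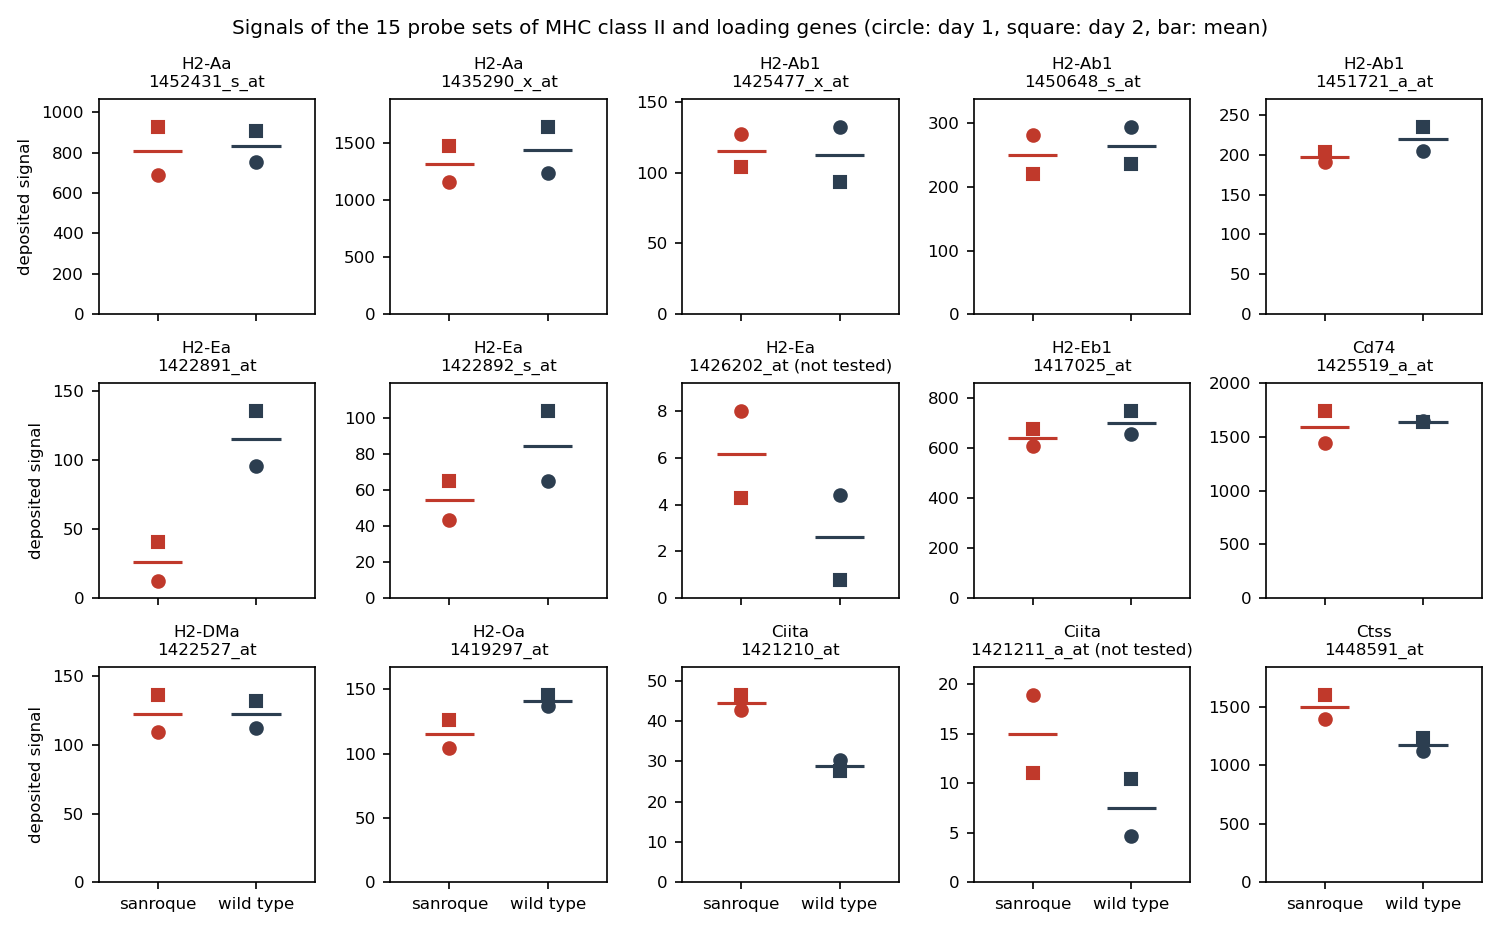
Deposited signal (linear scale, from 0) of each of the 15 member probe sets in the 2 sanroque and 2 wild type arrays, 1 panel per probe set, with circles for day 1, squares for day 2 and a bar at each mean. H2-Ea 1422891_at stands apart, with sanroque at 12.7 and 40.4 and wild type at 95.5 and 135.5, while the panels of H2-Aa, H2-Eb1, Cd74 and H2-DMa overlap.

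H2-Ea was represented by 3 probe sets that differed among themselves. Probe set 1422891_at had signals of 12.7 and 40.4 in sanroque arrays 1 and 2, against 95.5 and 135.5 in wild type arrays 1 and 2. Both sanroque arrays were below both wild type arrays, on each day. The means were 26.6 ± 19.6 in sanroque and 115.5 ± 28.3 in wild type (SD, n = 2 each). Limma put the log2 fold change at -2.02 ± 0.39 (SE), with a 95% interval of -2.89 to -1.16 and an adjusted p of 0.0352. The signal of 12.7 in sanroque array 1 lay under the mean signal cut of 21.3. The size of the change depended on the constant added before the log. It was -2.27 with 1 (adjusted p = 0.0458) and -1.51 with 24 (adjusted p = 0.0249). The difference was -2.44 within day 1 and -1.61 within day 2. Of the 53 probe sets that fell over the whole array, it had the 14th largest fall. The call was lost without wild type array 2, the array with the letters CBA (log2 fold change -1.78). In that fit the spread came from the sanroque arrays alone, and whether the letters bear on the loss was not tested. The log2 fold change was -2.26 without wild type array 1, -1.37 without sanroque array 1 and -2.68 without sanroque array 2. The call was also lost under quantile normalization (adjusted p = 0.111), with all probe sets kept (0.214), with a single prior variance (0.224) and against a minimum change of 1.2-fold (0.0765). The sign was negative under all 14 alternatives, with adjusted p from 3.87e-07 to 0.224.

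Probe set 1422892_s_at, whose suffix marks probes shared by more than 1 transcript, had 43.8 and 65.1 in sanroque against 65.5 and 104.1 in wild type. The genotypes were separated by a narrow gap, since sanroque array 2 lay just under wild type array 1. Its log2 fold change was -0.58 (95% interval -1.20 to 0.05), which did not pass (adjusted p = 0.558, 0.0908 with the day as a block). The probe set 1426202_at was near the bottom of the table, at 8.0 and 4.3 in sanroque and 4.4 and 0.8 in wild type, and was not tested. H2-Ea lies on chromosome 17 within the class II cluster. Of 648 tested probe sets of single genes on chromosome 17, 6 were called (0.926%), all lower in sanroque, beside 0.974% of the 12424 tested probe sets of single genes. They were those of H2-Ea, Dusp1, Hspa1a and Hspa1b, the last with 3 probe sets. Probe sets with several gene symbols were not counted here. Among those are the MHC probe sets shared by H2-Q genes that were called higher (log2 fold changes 3.63 and 1.69), described further on. Whether both genotypes carry the same class II haplotype is not given in the labels, so a difference of strain and the sanroque variant cannot be told apart for this gene.

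Both chains of I-A, the class II molecule of C57BL/6 mice, were measured in both genotypes, and none of their 5 probe sets passed the test. H2-Aa, the alpha chain gene, had signals of 688.2 and 926.5 in sanroque against 755.2 and 908.4 in wild type by probe set 1452431_s_at. By 1435290_x_at, some of whose probes may match other transcripts, it had 1158.3 and 1476.9 in sanroque against 1237.6 and 1639.3 in wild type. In both probe sets the genotypes overlapped, and the day 2 array was the higher one in each genotype. The log2 fold changes were -0.05 (95% interval -0.49 to 0.38) and -0.12 (-0.58 to 0.33), and neither passed (limma adjusted p = 0.973 and 0.927).

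H2-Ab1, the beta chain gene, had 3 probe sets. Probe set 1451721_a_at had 190.9 and 203.8 in sanroque against 204.9 and 234.9 in wild type, with the nearest arrays almost equal. Probe set 1450648_s_at had 281.7 and 220.5 in sanroque against 294.4 and 235.7 in wild type, and 1425477_x_at had 127.1 and 103.9 in sanroque against 132.3 and 93.1 in wild type. In these last probe sets the genotypes overlapped and the day 1 array was the higher one in each genotype, opposite to H2-Aa. The log2 fold changes of the 3 were -0.15, -0.08 and 0.05, and none passed (limma adjusted p = 0.884, 0.958 and 0.978).

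H2-Eb1, which encodes the beta chain that pairs with H2-Ea in I-E, did not pass the test. It had 607.3 and 677.8 in sanroque against 656.9 and 748.6 in wild type, and the genotypes overlapped. The log2 fold change was -0.13 with a 95% interval of -0.51 to 0.26 (limma adjusted p = 0.901), and the difference between both genes was not tested. Over the 7 probe sets of H2-Aa, H2-Ab1, H2-Eb1 and Cd74, the log2 fold changes ran from -0.15 to 0.05 and their intervals from -0.58 to 0.55.

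Cd74, the invariant chain, had 1446.6 and 1739.6 in sanroque against 1644.7 and 1638.5 in wild type. The sanroque arrays lay on either side of the wild type arrays, which were nearly equal. The means were 1593 ± 207 in sanroque and 1642 ± 4.38 in wild type (SD, n = 2 each). The log2 fold change was -0.05 (95% interval -0.45 to 0.35, limma adjusted p = 0.972). Ctss, the protease that degrades the invariant chain in antigen-presenting cells, had 1398.8 and 1600.7 in sanroque against 1125.7 and 1231.7 in wild type. Both sanroque arrays were above both wild type arrays. Its log2 fold change was 0.34 (95% interval -0.05 to 0.73), by 0.31 on day 1 and 0.38 on day 2, and it did not pass (adjusted p = 0.584, 0.147 with the day as a block).

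The Ctss promoter held no pair of GCAAC and GATTGG in that order and spacing. It is printed because it carries GAAA, any 2 bases and GAAA again, the core of elements bound by interferon regulatory factors, in capitals (chr3:95526636-95526785, plus strand). The motif was searched on both strands and occurred in 1 of 7 member promoters and 3.44% of all.
Ctss: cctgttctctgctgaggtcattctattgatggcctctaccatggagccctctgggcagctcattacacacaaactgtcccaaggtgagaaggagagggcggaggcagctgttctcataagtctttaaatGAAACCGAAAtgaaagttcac

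**Figure D2:**
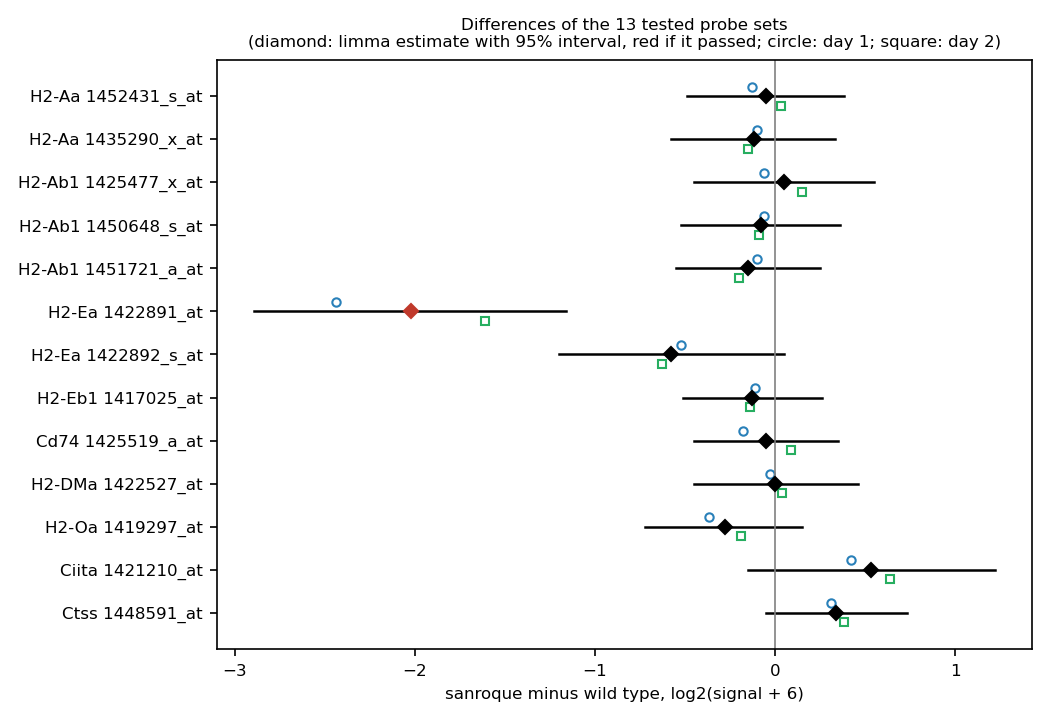
Sanroque minus wild type on the log2(signal + 6) scale for the 13 tested member probe sets, with the limma estimate (diamond, red where the test was passed), its 95% interval (line) and the differences within day 1 (circle) and day 2 (square). H2-Ea 1422891_at lies at -2.02 with an interval from -2.89 to -1.16, and the intervals of the other 12 include 0.

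The peptide editors also stayed short of the threshold. H2-DMa, a chain of the H2-DM editor, had 109.1 and 135.8 in sanroque against 111.8 and 131.9 in wild type, with overlapping genotypes and a log2 fold change of 0.00 (95% interval -0.45 to 0.46, limma adjusted p = 0.998). The beta chains of H2-DM had only 1 probe set of a single gene, H2-DMb2, at 116.8 and 136.9 in sanroque against 175.1 and 159.5 in wild type. Both probe sets shared by H2-DMb1 and H2-DMb2, named after their values were seen, were lower in both sanroque arrays as well. In them sanroque had 87.1 and 115.9 against 150.6 and 137.1 in wild type, and 28.2 and 37.3 against 53.7 and 55.1 in wild type. Their log2 fold changes were -0.49 (limma adjusted p = 0.468) and -0.65 (adjusted p = 0.492), and that of H2-DMb2 was -0.39 (adjusted p = 0.562), so none passed.

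H2-Oa, a chain of the inhibitor H2-O that is known from B cells, had 104.4 and 126.3 in sanroque against 137.0 and 145.4 in wild type. Both sanroque arrays were lower, with a log2 fold change of -0.28 (95% interval -0.72 to 0.15) that did not pass (limma adjusted p = 0.726). The probe set that H2-Ob shares with Gm20506 had 24.6 and 21.0 in sanroque against 23.9 and 10.7 in wild type, overlapped, and lay below the filter.

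Ciita, the transactivator, was dim. Its probe set 1421210_at had 42.7 and 46.4 in sanroque against 30.3 and 27.6 in wild type, and both sanroque arrays were the higher ones. The log2 fold change was 0.53 with a 95% interval of -0.15 to 1.22, the widest among the tested members outside H2-Ea, and it did not pass (limma adjusted p = 0.648, 0.287 with the day as a block). Probe set 1421211_a_at had 18.9 and 11.0 in sanroque against 4.7 and 10.4 in wild type and lay below the filter. Of the 11 tested member probe sets outside H2-Ea, this one of Ciita was the only one whose interval reached beyond 1 log2 unit in either direction, and those of the other 10 stayed within 1 unit of 0.

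**Figure D3:**
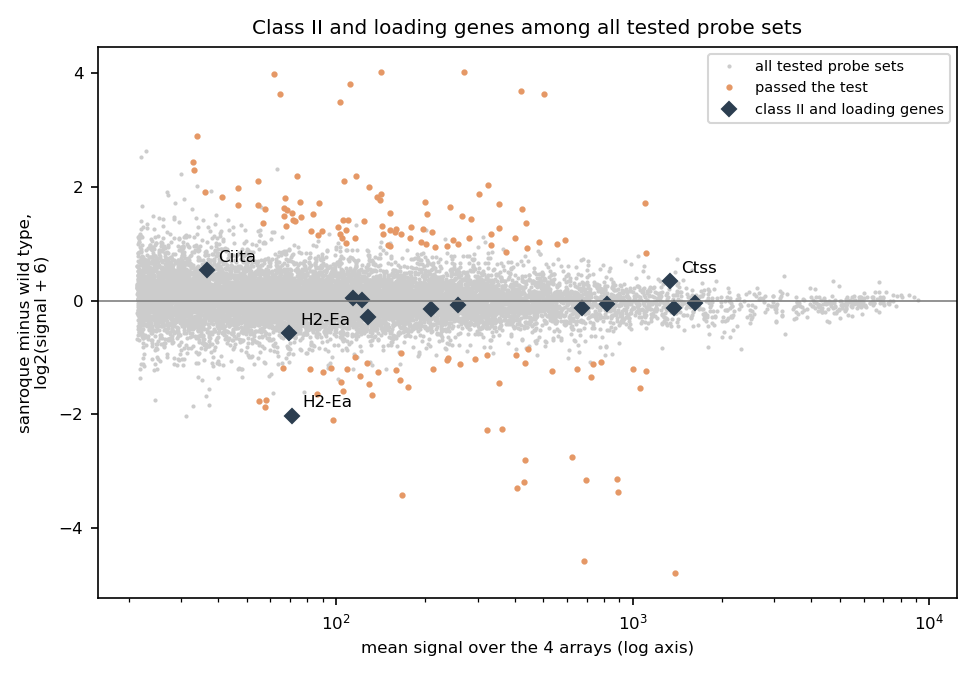
Sanroque minus wild type on the log2(signal + 6) scale against the mean signal over the 4 arrays (log axis) for all 13579 tested probe sets in grey, the 144 that passed in orange and the 13 tested member probe sets as dark diamonds. The H2-Ea probe sets are the lowest members at -2.02 and -0.58, and Ciita (0.53) and Ctss (0.34) are the highest.

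Many members differed between days in the same direction in both genotypes. In 9 of 13 tested probe sets the day 2 array was above the day 1 array in both genotypes, in 2 it was below in both, and in 2 the sign differed between genotypes. Over all tested probe sets these shares were 27.1% above and 37.2% below in both genotypes. For H2-Aa 1435290_x_at the day 2 array was higher by 0.35 in sanroque and 0.40 in wild type, and for H2-Ea 1422892_s_at by 0.51 and 0.62. H2-Ab1 1450648_s_at went the other way, with -0.35 in sanroque and -0.31 in wild type, and so did 1425477_x_at with -0.28 and -0.48. With the day as a block, the count of called members was again 1, H2-Ea 1422891_at (adjusted p = 3.87e-07), where 3.59% of all tested probe sets were called higher, 2.68% lower and 6.27% in either direction.

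**Figure D4:**
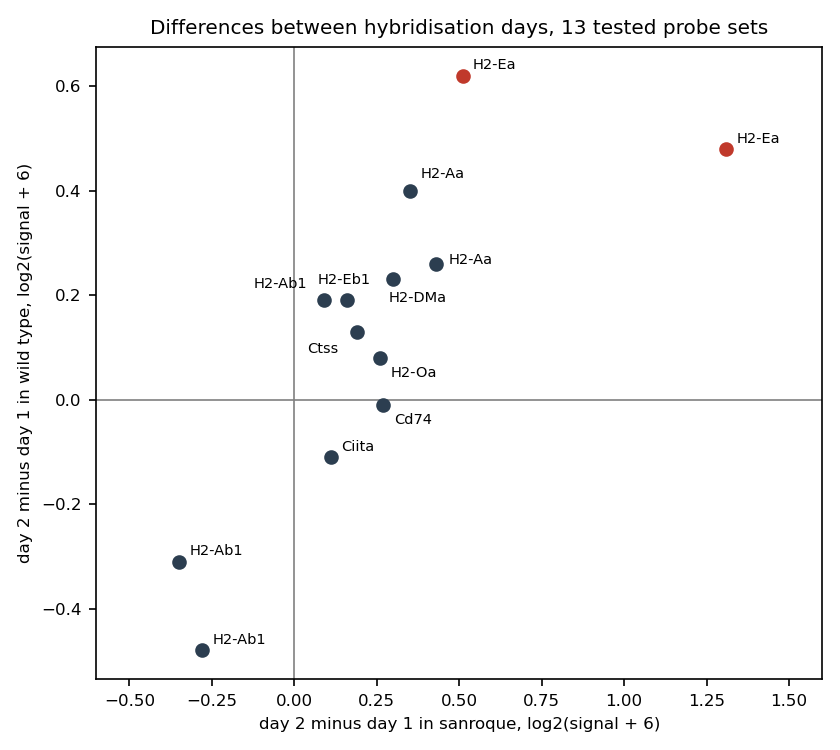
Day 2 minus day 1 in sanroque (x axis) and in wild type (y axis), both on the log2(signal + 6) scale, for the 13 tested member probe sets, with H2-Ea in red. Points of H2-Aa, H2-Eb1, H2-DMa, H2-Oa, Ctss and H2-Ea lie above 0 on both axes, and 2 of the 3 H2-Ab1 points lie below 0 on both.

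The pattern over the 4 arrays was compared with that of other genes as a description. The mean profile of the brightest probe sets of H2-Aa, H2-Ab1, H2-Eb1 and Cd74 was nearly flat, with an SD of 0.07 on the log2 scale. The most similar named genes were Sec22b, Ccm2, Slc44a2, Gdi2, Slc39a7 and Nap1l1, with Pearson r of 0.9994 to 0.9998 over 4 arrays, and 104 of 11912 probe sets compared exceeded 0.99. The arrays share a day in pairs, and the likeness rests on 4 points. For H2-Ea 1422891_at only 31 probe sets of other single genes varied as much, and 0 of them exceeded 0.99. The most similar were Dusp1 (r = 0.957), Tnfaip3 (0.938) and Ppp1r15a (0.935). These 3 were low in both sanroque arrays, as H2-Ea was. Dusp1 had 138.2 and 217.6 in sanroque against 1388.6 and 1790.8 in wild type. Over 4 arrays a high r to H2-Ea largely requires low sanroque values, so the shared direction is no separate result.

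None of the other genes of the class II pathway passed either. Of 15 such genes 12 were tested, and 0 rose, 0 fell and 12 did not pass; at an unadjusted p under 0.05 there were 4. In the fit with a day block 3 were called, all higher in sanroque. That fit called 3.59% of all tested probe sets higher and 2.68% lower. These shares belong beside the block counts of this list and of those that follow, which count genes by their brightest probe set. The list's median log2 difference was 0.00, beside 0.015 for all tested probe sets. Cd83, which in mice stabilises class II molecules at the cell surface, had 191.7 and 190.5 in sanroque against 75.1 and 109.9 in wild type. Its log2 fold change of 1.02 missed the threshold (limma adjusted p = 0.057) and passed with the day as a block (0.00021). The lysosomal protease genes Ctsb and Lgmn had log2 fold changes of 0.56 (adjusted p = 0.294, 0.0115 with the block) and 0.66 (adjusted p = 0.372, 0.049 with the block). The other 3 tested probe sets of Ctsb had 0.34, 0.64 and 0.67 and did not pass in either fit.

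Of 15 genes encoding regulators of class II transcription 14 were tested, and 0 rose, 0 fell and 14 did not pass, with a median of 0.13 and 3 at an unadjusted p under 0.05. In the fit with a day block Irf8, a factor of B and myeloid cells, was called higher, and Nfyb, a subunit of the NF-Y complex that binds the Y box, was called lower. Irf8 had 270.8 and 293.7 in sanroque against 178.3 and 155.5 in wild type (log2 fold change 0.74, limma adjusted p = 0.105, 0.00283 with the block). Nfyb had 56.6 and 123.0 in sanroque against 145.5 and 156.8 in wild type (-0.81, adjusted p = 0.375, 0.00845 with the block). These are each gene's brightest probe sets, and the other tested probe set of each did not pass, with 0.12 for Irf8 (adjusted p = 0.935, 0.785 with the block) and -0.14 for Nfyb (adjusted p = 0.919, 0.776 with the block). Rfxank, a subunit of the RFX complex that binds the X box, had 60.3 and 64.9 in sanroque against 99.4 and 94.0 in wild type, did not overlap and did not pass (-0.58, adjusted p = 0.369), nor did its other tested probe sets (-0.73 and -0.12).

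Of 10 genes of the interferon gamma axis, which induces Ciita, 9 were tested and 0 passed in either direction, with 0 also under the day block; at an unadjusted p under 0.05 there were 3. Ifng itself had 22.5 and 19.9 in sanroque against 37.9 and 56.2 in wild type (log2 fold change -0.94, limma adjusted p = 0.38). Jak2, a kinase of the receptor, had 0.52 (adjusted p = 0.402), and Usf1, a factor at a Ciita promoter, had -0.55 (adjusted p = 0.459). Of 43 genes that lie near the class II genes on chromosome 17, 33 were tested and 0 rose, 0 fell and 33 did not pass, with 2 at an unadjusted p under 0.05. Their median was 0.01. With the block 2 of the 33 were called higher, beside 3.59% of all tested probe sets. They were Tap1, a peptide transporter of class I loading (0.79, adjusted p = 0.1, 0.00124 with the block), and Ppt2, a thioesterase (0.72, adjusted p = 0.441, 0.0195 with the block).

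Markers of the cells that make class II molecules were read on the same arrays, since in RNA of bulk cells fewer cells of a type and less RNA per cell cannot be told apart. Of 18 B cell markers 12 were tested and 0 passed in either direction, with 2 at an unadjusted p under 0.05. Their summed signal was 2003.2 and 2124.0 in sanroque against 1962.7 and 2039.4 in wild type. Among them Pou2af1, a B cell coactivator, had 140.8 and 117.8 in sanroque against 90.6 and 91.2 in wild type, and Cd22, a B cell receptor inhibitor, had 301.8 and 302.0 in sanroque against 214.4 and 247.8 in wild type. Cr2, a complement receptor of B cells, had 70.1 and 96.7 in sanroque against 152.4 and 130.5 in wild type (log2 fold change -0.73, limma adjusted p = 0.216, 0.0127 with the block). By their brightest probe sets, Ms4a1, Cd79a and Cd79b had 230.6 and 319.1, 205.9 and 198.0, and 276.2 and 271.6 in sanroque. In wild type they had 283.5 and 325.8, 231.3 and 244.1, and 281.1 and 280.3. Their log2 fold changes were -0.16, -0.23 and -0.03, and none passed (limma adjusted p = 0.889, 0.763 and 0.979). The B lineage factor Pax5 lay below the filter, at 4.5 and 11.9 in sanroque and 5.2 and 3.8 in wild type. All 3 probe sets of Ebf1 lay below it as well. No marker probe set was at 0 on any array. Only 3 of 10 dendritic cell markers were tested, and 0 passed, also at an unadjusted p under 0.05. They summed to 210.5 and 187.4 in sanroque against 199.6 and 163.4 in wild type.

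Of 12 monocyte or macrophage markers 11 were tested, and 2 rose, the lysozyme genes Lyz1 (log2 fold change 1.71, adjusted p = 0.00105) and Lyz2 (1.61, adjusted p = 0.000797), 0 fell and 9 did not pass. The names of both tested Lyz1 probe sets end in _x_at, so some of their probes may match other transcripts. The remaining Lyz1 probe set had 29.6 and 16.8 in sanroque against 17.1 and 4.9 in wild type, overlapped, and lay below the filter. Whether Lyz1 rose separately from Lyz2 was not tested. In the fit with a day block 5 of the 11 markers were called higher. These were Lyz1, Lyz2, Fcgr1 (1.49, limma adjusted p = 0.459, 0.0207 with the block), Mpeg1 (0.72, 0.105 and 0.00268) and Csf1r (0.50, 0.369 and 0.0389). Fcgr1 was dim, at 48.0 and 25.9 in sanroque against 20.8 and 2.2 in wild type, where both arrays lay under the mean signal cut. For Csf1r this is the brightest probe set. Its other tested probe sets had 0.05 and 0.18 and did not pass (limma adjusted p = 0.978 and 0.88, 0.924 and 0.674 with the block). Both sanroque arrays were above both wild type arrays for 8 of the 11 and below for 0, against 21.0% and 17.7% of all tested probe sets. The 11 changes ran from 0.15 to 1.71. The smallest were those of Cd14 and Cd68, monocyte and macrophage surface and lysosomal proteins, which overlapped between genotypes at 0.15 (adjusted p = 0.948) and 0.19 (adjusted p = 0.897). The 11 summed to 4109.4 and 3986.5 in sanroque against 1757.6 and 2078.2 in wild type. Within these sums Lyz1 gave 1671.0 and 1687.7 in sanroque against 444.3 and 582.2 in wild type. Lyz2 gave 642.6 and 637.6 in sanroque against 201.1 and 210.0 in wild type. Since the Lyz1 probes may match other transcripts, the parts of both genes may overlap. Of 6 neutrophil markers 3 rose, the granule gene Ngp (2.20, adjusted p = 0.000329) and the calprotectin genes S100a8 (1.28, adjusted p = 0.00716) and S100a9 (1.18, adjusted p = 0.00957), and 3 did not pass. With the block 5 were called higher, including the granule genes Camp (2.02, adjusted p = 0.0782, 0.000186 with the block) and Ltf (1.30, adjusted p = 0.079, 0.00122 with the block), and Mpo overlapped. The 6 summed to 1288.6 and 1348.2 in sanroque against 510.8 and 491.4 in wild type. Both sums were higher in the same arrays in which Ctss and Ciita had their higher values, and the part of these cells in those differences was not tested. The 8 tested CD4 T cell markers summed to 9083.3 and 10125.6 in sanroque against 9684.1 and 10595.5 in wild type, and 0 of them passed in either direction, with 1 at an unadjusted p under 0.05. Cd4 itself had 585.9 and 570.2 in sanroque against 533.3 and 613.5 in wild type by its probe set of higher signal. The CD8 markers Cd8a and Cd8b1 summed to 124.2 and 105.7 in sanroque against 101.2 and 92.6 in wild type.

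**Figure D5:**
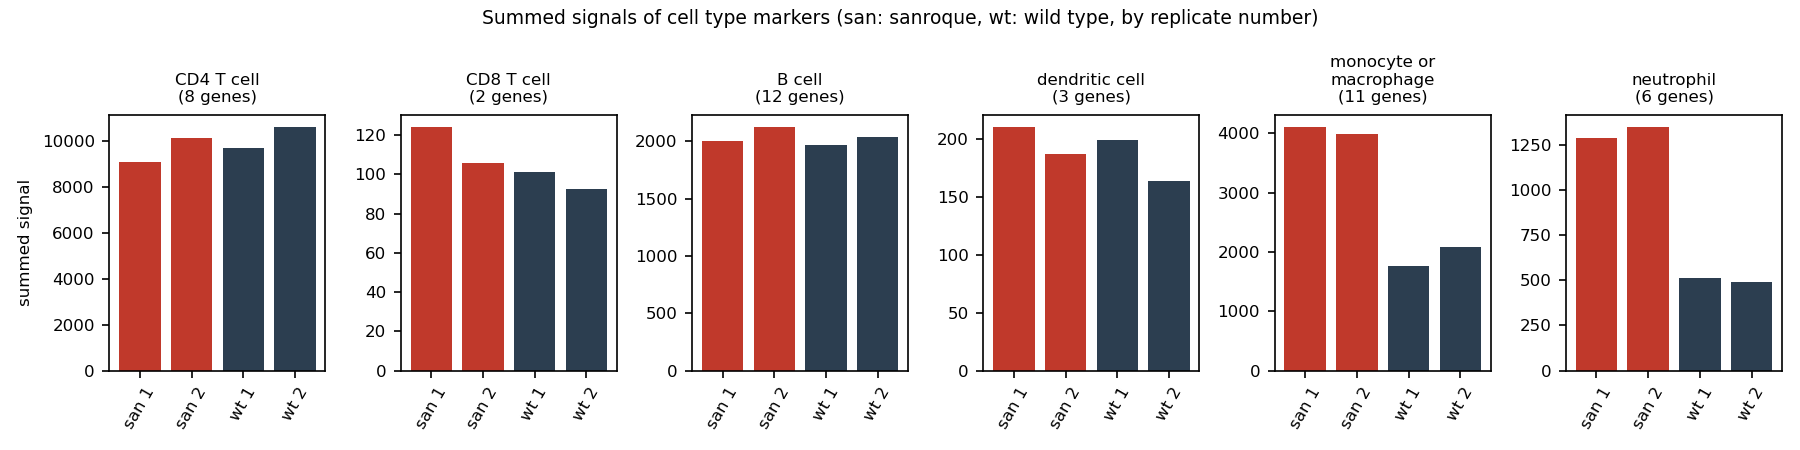
Summed deposited signal (linear, from 0) of the brightest tested probe set of each marker gene, 1 panel per cell type with its own axis and 1 bar per array, sanroque in red and wild type in dark blue. The B cell bars lie between 1962.7 and 2124.0 in all 4 arrays, whereas the monocyte or macrophage and neutrophil bars are higher in both sanroque arrays. In sanroque array 1, Lyz1 gives 1671.0 and Lyz2 642.6 of the 4109.4 in the monocyte or macrophage bar.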

How the data were processed

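The deposited table holds 1 linear intensity per probe set and array, and the chip type comes from the experiment information, per the file headers. How probes were summarised and background was corrected is not given in the sources used here. Deposited intensities had trimmed means of 99.99 (2% to 98%) on all 4 arrays, so they had been scaled before deposit, and no further scaling was applied. Other experiment information, deposited as text, gave the shared days.

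Genotype and replicate number came from the titles. Same-numbered arrays shared a hybridisation day, and the pairing rests on that day alone. Their deviations from the genotype mean correlated with 0.392 over 13579 probe sets. With 2 arrays per genotype the other matching gives -0.392 by construction, so this value cannot show a pairing. Signals were taken as log2(signal + 6), 64 control probe sets and those under the 40th percentile of mean signal (21.3) were left out, and the genotypes were compared by limma 3.58.1 (lmFit, eBayes with variance trend) in R 4.3.3, two-sided, without covariates. On this scale the fold of a dim probe set comes out too small. The fit was tested on simulated data. In lists a gene counts by its brightest tested probe set. Members, lists and motifs were chosen with earlier results of these data known, and lists came from general knowledge. Named were all members, Cd4, list genes past the test and the genes most similar over the 4 arrays. Of the up to 3 genes per list with the largest change and no overlap, most were named and some were left out. The H2-DMb genes, H2-K1, Ms4a1, Cd79a, Cd79b, Pax5, Ebf1, Cd14, Cd68, Csf1r, Mpeg1, Mpo and the other genes called on chromosome 17 were added with their values known. Gene symbols came from the platform annotation, where 691 probe sets carried several symbols. Alternatives were scaling, pseudocount, filter, variance trend, 2 blocks, each array left out and a minimum change of 1.2-fold. The blocks were the day and the wording of the titles. The titles have no. for sanroque array 1 and wild type array 2, and pt for sanroque array 2 and wild type array 1. The wording thus pairs the arrays otherwise than the day does. Values given with the block are those of the day. The number of arrays limits the precision. Figures used matplotlib 3.10.9.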

Additional observations from a re-analysis of the deposited data

How the results depend on the processing

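Over all probe sets 144 were called, 91 of them higher. The count was 56 without the filter, 47 without the variance trend, 852 with the day as a replicate block (488 higher), 80 with a minimum change of 1.2-fold, and 105 to 356 with 1 array left out (356 without wild type array 1). With each array centred on its median 101 of 190 were higher, and without sanroque array 2 it was 52 of 105. The count of called members was 1, and 0 under quantile normalization, without the filter, without the variance trend, with a minimum change of 1.2-fold and without wild type array 2, so 0 to 1 with an array left out. By gene it was 1 also with the brightest probe set alone. H2-Ea 1422891_at had -2.11, -2.02, -2.02, -2.02 and -1.78 in those 5 fits, and -2.68 to -1.37 with an array left out; the cause was not tested.

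Over 13 member probe sets and up to 14 alternatives, 181 values were computed, of which 160 kept direction and side of the threshold, 16 reversed and 5 lost the call. The day block changed no call of a member. All reversals were of differences that did not pass. Under quantile normalization H2-Aa 1452431_s_at had 0.023, Cd74 0.04 and H2-DMa -0.0084, and with median centring H2-Ab1 1425477_x_at had -0.053 and H2-DMa -0.097. With an array left out, H2-Aa 1452431_s_at ran from -0.27 to 0.16, 1435290_x_at from -0.32 to 0.079, H2-Ab1 1425477_x_at from -0.19 to 0.29, 1450648_s_at from -0.25 to 0.095, Cd74 from -0.18 to 0.083 and H2-DMa from -0.15 to 0.15. Ciita 1421210_at has no value with the filter at the 60th percentile. The signs of Ctss, Ciita, H2-Oa, H2-Eb1 and both H2-Ea probe sets did not reverse in any fit run.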

Other observations

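Elsewhere in the mouse MHC, 2 class I probe sets that carry several gene symbols, picked with their values known, were higher in sanroque. The probe set shared by H2-Q7 and H2-Q9, class Ib genes of the Qa-2 antigen, had 1013.6 and 853.7 in sanroque against 91.0 and 52.9 in wild type, a log2 fold change of 3.63 (limma adjusted p = 1.98e-05). The probe set shared by H2-Q6 and H2-Q8 had 532.8 and 551.4 in sanroque against 190.0 and 140.5 in wild type (1.69, adjusted p = 0.00135). The probe set shared by H2-Q4, H2-Q6 and H2-Q8 overlapped, with 34.3 and 48.4 in sanroque against 22.4 and 37.9 in wild type (0.41, adjusted p = 0.812). The 4 tested probe sets of the classical class I gene H2-K1 had 0.07, 0.09, 0.82 and 1.24, and none passed (limma adjusted p from 0.119 to 0.95). With the day as a block those at 0.82 and 1.24 passed (0.0221 and 4.59e-06). The names of all 4 end in _x_at, so some of their probes may match other transcripts. Whether these differences are those of H2-K1 was not tested. Qa-2 levels are known to differ between mouse strains, as is the function of H2-Ea, and strain and the sanroque variant cannot be told apart here.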
